A study of Mus musculus with 28 samples.

Results

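The germline transposon silencing genes described here were 10 genes, Mael, Tex19.1, Piwil2, Tdrd1, Mov10l1, Asz1, Ddx4, Dazl, Fkbp6 and Tex101, out of 37583 gene rows in each of the deposited tables. They were chosen by name, with earlier results of these data known, and each name had 1 row in both tables. They lie on 10 different chromosomes, 1, 11, 14, 19, 15, 6, 13, 17, 5 and 7 in the order named, so none neighbours another. The PIWI-interacting RNA (piRNA) pathway is the small RNA system with which germ cells silence transposons. Long precursor transcripts are cut into piRNAs and loaded onto PIWI proteins, in granules that sit beside mitochondria and are called nuage, and the loaded PIWI proteins cut transposon RNA and direct DNA methylation to transposon copies. The genes of the pathway are kept off in most somatic cells by DNA methylation of their CG-rich promoters and by a Polycomb-type complex that contains the DNA-binding proteins MGA, MAX and E2F6, and several of them are transcribed at a low level in mouse embryonic stem cells. Dazl, which encodes an RNA-binding protein that promotes translation in germ cells, and Tex101, which encodes a germ cell surface glycoprotein needed for sperm function, are germline genes with no established place in the piRNA machinery, so the name of the set covers them only loosely.

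The study sequenced ribosomal-RNA-depleted total RNA of mouse embryonic stem cells and of embryoid bodies, aggregates in which stem cells differentiate, taken 5 days after withdrawal of the cytokine LIF. Stem cells of passages 15 to 26 were grown with LIF and inhibitors of MEK and GSK on mouse embryonic fibroblasts, which were removed by plating before RNA was taken. In the CJ7 line there were 2 libraries per stage of wild-type cells, of Eed null cells, and of cells edited to carry the EloAK754M or the EloAK754R allele. In the line named CCE or CCE28 there were 3 stem cell libraries each of wild-type (EloA+/+) and EloA null cells, and 2 embryoid body libraries of wild-type cells. EED is a core subunit of Polycomb repressive complex 2, the enzyme that methylates lysine 27 of histone H3. Elongin A, encoded by EloA (Tceb3 in the tables), is a transcription elongation factor; in the K754M and K754R alleles one of its lysines is replaced by methionine or arginine. The comparisons ask how loss of Polycomb repressive complex 2, loss of Elongin A and changes of this lysine alter transcription. The labels do not say whether an edited or null line was 1 clone, or whether libraries of a group came from separate cultures, so p-values measure only the spread between libraries. For 4 further CCE embryoid body libraries the sample titles and the table columns disagree. Pair A is titled EloA-null and has columns named EloAhet, pair B is titled EloA+/- and has columns named EloAnull, and neither pair is given a genotype here.

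Levels are RPKM, read counts divided by transcript length and by sequencing depth, which allows levels of different genes to be compared within a library. Depth, estimated from the RPKM that 1 read is worth, was 11.05 to 18.2 megareads in CJ7 stem cells, 24.3 to 46.3 megareads in CCE stem cells, 28.7 to 39.8 megareads in CJ7 embryoid bodies and 23.6 to 30.8 megareads in CCE embryoid bodies. Eed itself had 22.3 and 22.1 RPKM in Eed null stem cells against 105 and 119 in wild type, and 15.8 and 16.3 against 49.6 and 55.3 in embryoid bodies. Tceb3 had 8.02, 6.33 and 6.17 RPKM in EloA null stem cells against 11.7, 11.2 and 10.7 in wild type. Neither row was at 0, and whether it covers the deleted part of the gene is not given in the sources used here. The summed level of 16 pluripotency genes was 2382 to 3453 RPKM across all stem cell libraries, which fits their label, and 44.4 to 343 RPKM in the embryoid bodies other than Eed null.

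RefSeq promoters (build GRCm38.p6) were available for 9 of the 10 genes, with 12 start sites, and the 250 bases before each start were searched on both strands for an E-box, CACGTG, which MGA and MAX bind, and for the core of an E2F site, GCGGGA or its complement TCCCGC. These motifs do not overlap each other. The sequences below are printed because they show which of the genes carry the letters of these sites close to their start. They run 5′ to 3′ on the gene's strand and end at the base before the start site, with motif matches in capitals. Mael lies at chr1:166238745-166238994 (minus strand), Fkbp6 at chr5:135350045-135350294 (minus), Mov10l1 at chr15:88982744-88982993 (plus), Tex19.1 at chr11:121145893-121146142 (plus), Tex101 at chr7:24672051-24672300 (minus) and Dazl at chr17:50293621-50293870 (minus).
Mael: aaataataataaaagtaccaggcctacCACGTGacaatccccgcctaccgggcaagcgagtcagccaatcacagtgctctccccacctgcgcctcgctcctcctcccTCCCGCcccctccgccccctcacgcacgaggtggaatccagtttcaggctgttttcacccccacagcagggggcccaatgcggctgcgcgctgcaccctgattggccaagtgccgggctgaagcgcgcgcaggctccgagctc
Fkbp6: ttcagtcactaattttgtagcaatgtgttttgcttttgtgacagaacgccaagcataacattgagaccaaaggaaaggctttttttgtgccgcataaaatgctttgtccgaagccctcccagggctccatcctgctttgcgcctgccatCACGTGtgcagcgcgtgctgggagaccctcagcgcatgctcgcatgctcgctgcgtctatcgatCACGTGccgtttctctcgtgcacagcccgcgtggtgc
Mov10l1: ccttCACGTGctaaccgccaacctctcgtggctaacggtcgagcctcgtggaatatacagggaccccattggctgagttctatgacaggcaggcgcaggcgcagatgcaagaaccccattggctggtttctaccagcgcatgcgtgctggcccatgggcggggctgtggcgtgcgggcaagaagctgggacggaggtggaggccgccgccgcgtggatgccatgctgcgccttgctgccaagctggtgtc
Tex19.1: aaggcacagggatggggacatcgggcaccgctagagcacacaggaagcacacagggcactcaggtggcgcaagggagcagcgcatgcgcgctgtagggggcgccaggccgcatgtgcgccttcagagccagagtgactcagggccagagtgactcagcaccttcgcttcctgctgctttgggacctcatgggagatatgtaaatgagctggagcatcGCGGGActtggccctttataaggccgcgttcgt
Tex101: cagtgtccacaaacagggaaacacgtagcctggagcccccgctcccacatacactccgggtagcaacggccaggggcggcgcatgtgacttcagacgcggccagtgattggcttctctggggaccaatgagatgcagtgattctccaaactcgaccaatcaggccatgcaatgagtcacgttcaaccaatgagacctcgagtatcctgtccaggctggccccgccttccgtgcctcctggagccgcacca
Dazl: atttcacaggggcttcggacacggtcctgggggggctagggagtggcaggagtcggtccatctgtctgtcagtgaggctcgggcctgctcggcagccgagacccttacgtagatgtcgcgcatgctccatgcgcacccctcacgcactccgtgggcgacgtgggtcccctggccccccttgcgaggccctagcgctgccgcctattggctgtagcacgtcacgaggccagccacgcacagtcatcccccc

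The E-box was present before 7 of the 12 start sites and in 5 of the 9 genes, Mael, Fkbp6, Mov10l1, Ddx4 and Tdrd1. Overlapping promoters of Fkbp6 share the same E-boxes, and so do those of Tdrd1, so the 7 are not separate sites. Of 32841 RefSeq promoters of the same length 6.02% held it. Fkbp6 carried 2 copies, at bases -101 to -96 and -37 to -32 before the start site whose promoter is printed. The E2F core was present in 3 genes, Mael, Tex19.1 and Ddx4, against 16.9% of all promoters, and Mael and Ddx4 held both motifs, as 1.45% of all promoters did. Neither was found within 250 bases of the starts of Asz1, Dazl or Tex101, and a match or its absence is only a description of these letters. The number of CG pairs per promoter ranged from 3 to 31, against a median of 6 and quartiles of 2 and 16 over all promoters. The 3 belongs to 1 start site of Tdrd1, and the next lowest number was 11. Both motifs contain a CG pair, and their share among promoters of like CG number was not computed, so the shares over all promoters are not a like background.

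**Figure D1:**
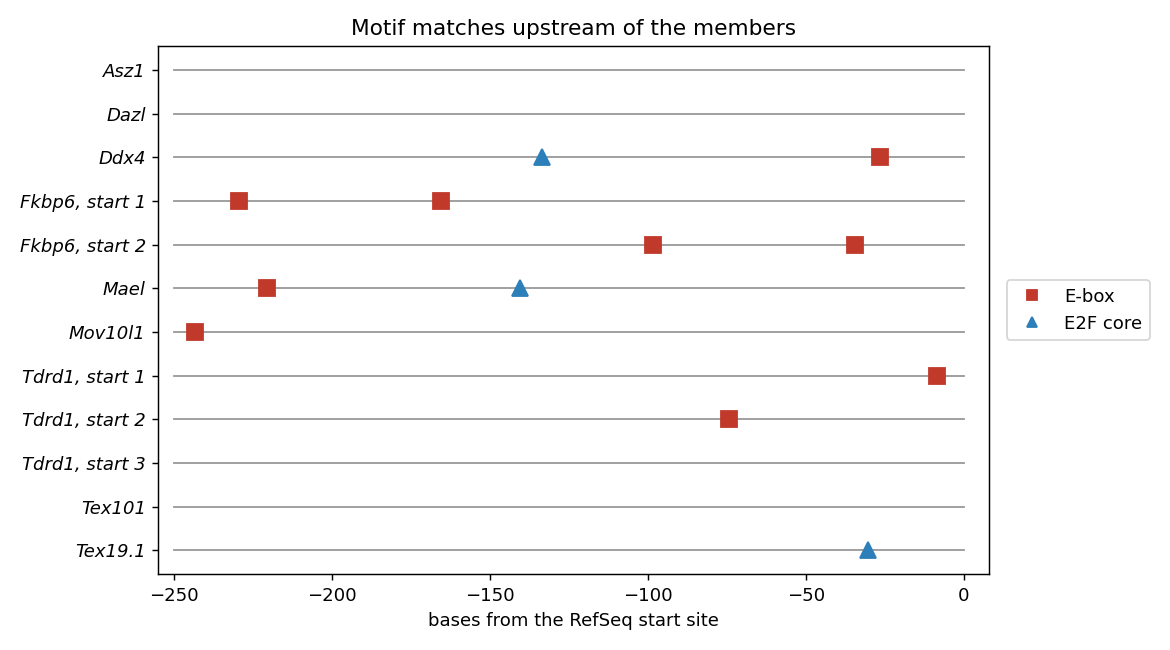
Position of E-box (squares) and E2F core (triangles) matches in the 250 bases before each of 12 RefSeq start sites of 9 genes; the horizontal axis gives bases from the start site. E-boxes lie before 7 start sites, where overlapping promoters of Fkbp6 and of Tdrd1 share the same matches, and the lines of Asz1, Dazl and Tex101 are empty.

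In wild-type CJ7 stem cells the 10 genes differed widely in level. Tex19.1 had the highest level, 105 and 155 RPKM, followed by Dazl with 30.6 and 51.0 and Fkbp6 with 26.9 and 22.5. Mael, Piwil2, Ddx4, Mov10l1 and Asz1 lay between 1.51 and 10.9 RPKM, Tex101 had 0.775 and 0.771, and Tdrd1 had 0.0333 and 0.149. Loss of Eed raised 6 of the 10 genes in stem cells, at an adjusted p under 0.05 in limma fitted over all genes, and lowered none. In that comparison 5.32% of the 21012 genes tested were called higher and 3.27% lower, 8.59% in all. The median log2 change of the 10 genes was 1.58, against 0.05 for all genes tested. In 9 of the 10 both Eed null libraries were above both wild-type libraries, which was so for 36.6% of all genes tested. Tdrd1 passed the filter on low values only through the Eed null libraries, so it could enter this fit only by being higher there. In bulk RNA, a change in the share of cells that express a gene and a change in RNA per cell cannot be told apart.

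Tex101 had the largest log2 change of the 10 genes. Its levels were 29.7 and 25.4 RPKM in Eed null stem cells against 0.775 and 0.771 in wild type. The groups were far apart and the wild-type libraries nearly equal (log2 change 4.46 ± 0.30 SE, adjusted p = 0.000924, limma). No other stem cell group exceeded 1.05 RPKM, so at this gene the Eed null cells stood apart from every other stem cell group.

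Among the genes that make and load piRNAs, Piwil2, which encodes the PIWI protein MILI, had 25.6 and 26.5 RPKM in Eed null stem cells against 5.30 and 5.03 in wild type (log2 change 2.23 ± 0.30 SE, adjusted p = 0.00974). Mov10l1, the RNA helicase that feeds piRNA precursors into processing, had 10.5 and 9.996 RPKM against 2.54 and 2.63 (log2 change 1.80 ± 0.31 SE, adjusted p = 0.0217). Fkbp6, a co-chaperone that acts in piRNA loading, had 86.1 and 76.5 RPKM against 26.9 and 22.5 (1.702 ± 0.21, adjusted p = 0.00666). The fold differences of mean RPKM were 5.04 for Piwil2, 3.96 for Mov10l1 and 3.29 for Fkbp6, and in each the libraries of the groups did not overlap.

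Among the nuage proteins, Mael, an HMG-box protein needed for transposon silencing in the testis, had 33.0 and 29.4 RPKM in Eed null stem cells against 7.003 and 10.9 in wild type (log2 change 1.78 ± 0.37 SE, adjusted p = 0.0353). Tdrd1, a Tudor protein that binds methylated PIWI proteins, had 0.978 and 1.27 RPKM against 0.0333 and 0.149 (1.46 ± 0.24, adjusted p = 0.0174). Asz1, which anchors nuage to mitochondria, had 5.44 and 4.77 RPKM against 1.51 and 2.09. Its groups did not overlap, but the change missed the threshold (1.30 ± 0.31, adjusted p = 0.0524); it passed in the fit of all 14 libraries (adjusted p = 0.00429) and with a filter of 1 RPKM (adjusted p = 0.0433). Ddx4, the DEAD-box helicase of nuage, had 9.67 and 8.72 RPKM against 3.99 and 2.60, again without overlap and without a call (1.38 ± 0.47, adjusted p = 0.125), except in the fit of all 14 libraries (adjusted p = 0.0216). Without the filter on low values Mael (adjusted p = 0.127) and Mov10l1 (adjusted p = 0.0692) lost their calls.

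The remaining genes with high wild-type levels moved least. Tex19.1, which restrains retrotransposons in germ cells, had 182 and 177 RPKM in Eed null stem cells against 105 and 155 in wild type (log2 change 0.49 ± 0.25 SE, adjusted p = 0.266). Dazl had 37.4 and 36.4 RPKM, between the wild-type values of 30.6 and 51.0 (-0.10 ± 0.38, adjusted p = 0.903). Dazl was the 1 gene of the 10 whose Eed null and wild-type libraries overlapped.

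The calls in Eed null stem cells depended on having both libraries per group. With any 1 of the 4 libraries left out, 1 or 2 of the genes were called. Tex101 passed in all 4 such fits, with log2 changes of 4.34 to 4.57, and Fkbp6 passed in the fit without wild-type library 1. Mael, Piwil2, Tdrd1 and Mov10l1 passed in none, with their largest adjusted p-values from 0.0944 for Piwil2 to 0.229 for Mael.

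**Figure D2:**
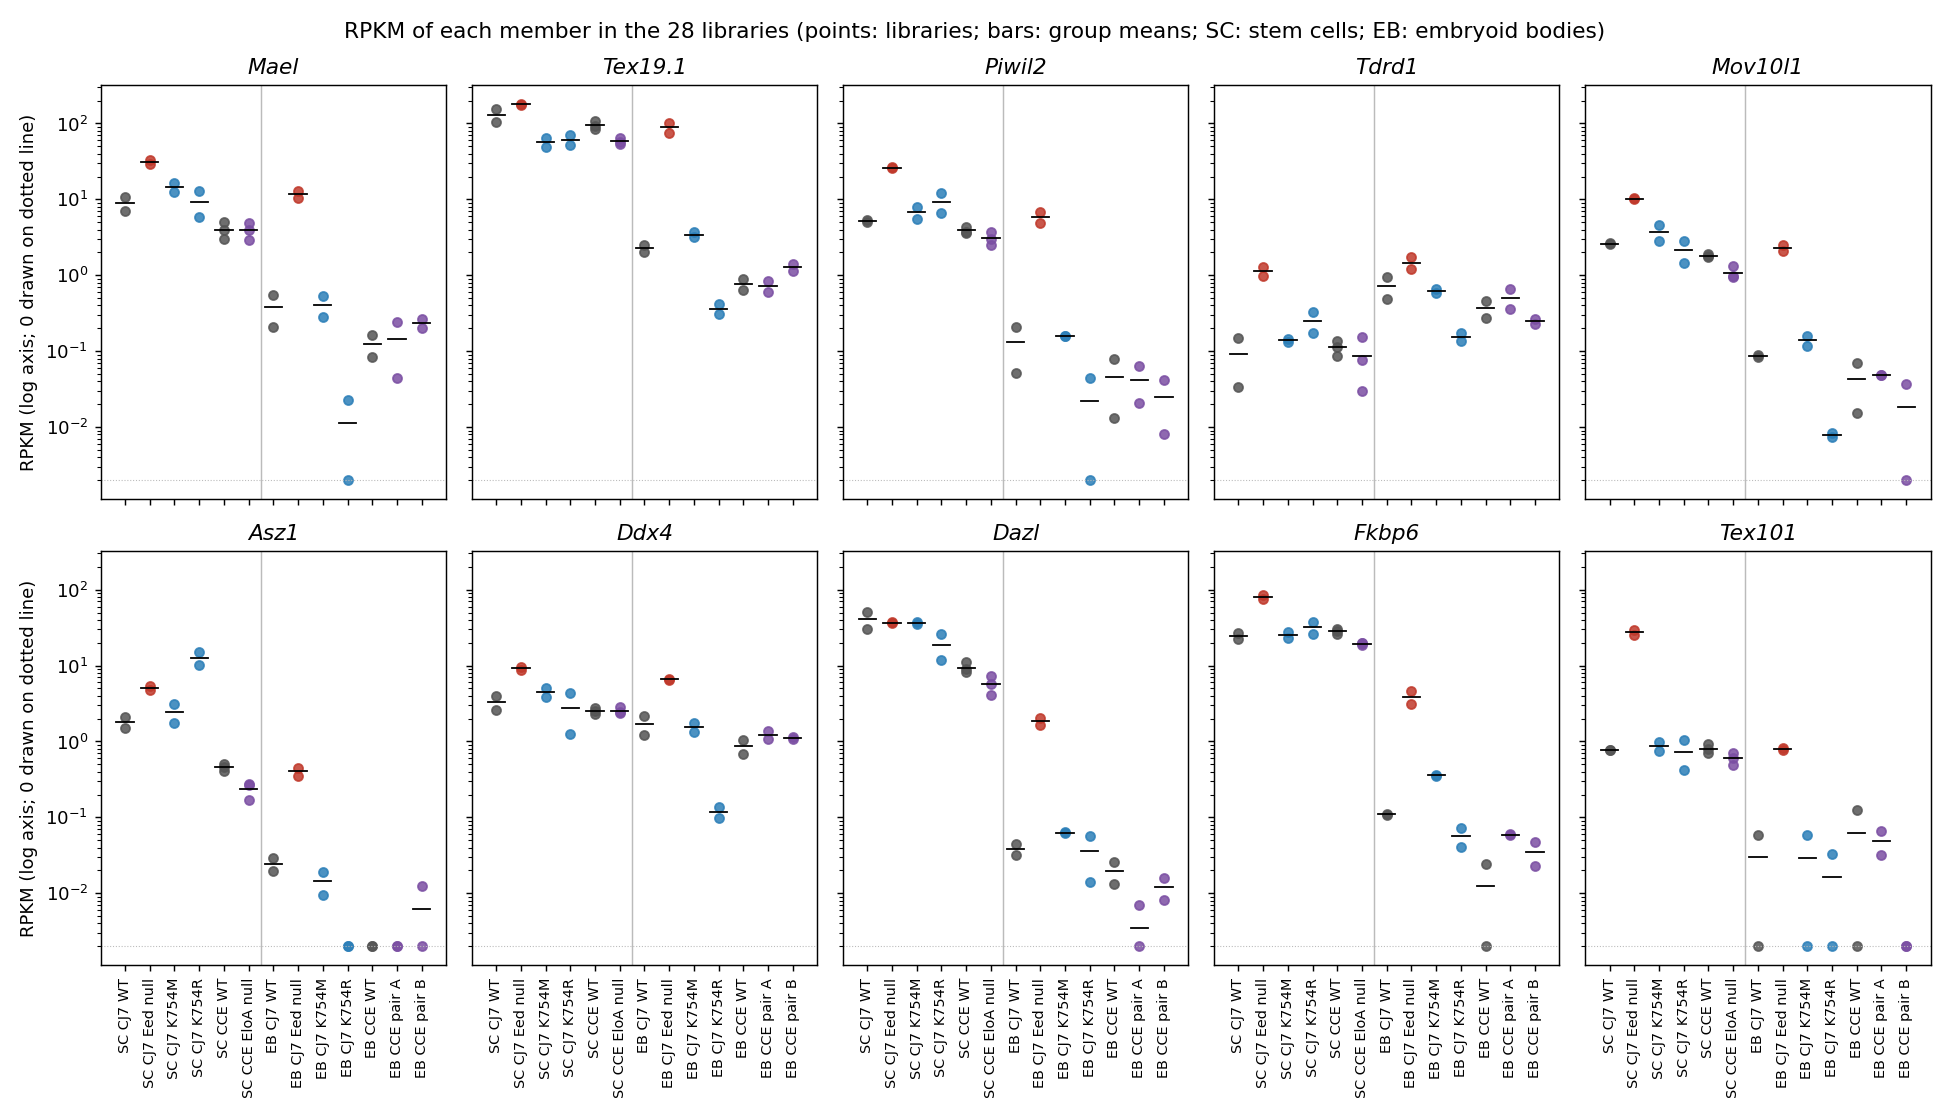
RPKM of the 10 genes on a log axis in the 28 libraries (points), with group means (bars); stem cells (SC) are left and embryoid bodies (EB) right of the grey line, and libraries listed at 0 lie on the dotted line. The Eed null points are the highest of their stage in every panel except Asz1 and Dazl in stem cells.

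For neither Elongin A allele was any of the 10 genes called in stem cells. For K754M, 0.0% of the 21012 genes were called by limma, with 2103 at an unadjusted p under 0.05, among them 1 of the 10 genes. For K754R 0.162% of all genes were called, 0.0761% higher and 0.0857% lower, with 3000 at an unadjusted p under 0.05, and 4 of the 10 genes had an unadjusted p under 0.05. Tex19.1 had 48.5 and 65.2 RPKM in K754M and 51.4 and 70.0 in K754R stem cells, all 4 values below the wild-type values of 105 and 155. The log2 changes were -1.18 ± 0.25 (SE, adjusted p = 0.187) and -1.08 ± 0.25 (adjusted p = 0.136). When all 14 stem cell libraries were fitted together, both passed, at adjusted p = 0.0132 and 0.0125, in a fit that called 955 genes for K754M and 1747 for K754R.

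Asz1 had its highest levels of the study in K754R stem cells, 14.9 and 10.1 RPKM, against 1.51 and 2.09 in wild type, 1.74 and 3.11 in K754M and 5.44 and 4.77 in Eed null cells. The K754R libraries lay above every other stem cell library (log2 change against wild type 2.49 ± 0.31 SE, adjusted p = 0.0592). In the fit of all 14 libraries this change passed at adjusted p = 0.000611, and so did the difference between K754M and K754R at adjusted p = 0.00193. Dazl had 26.0 and 11.9 RPKM in K754R cells against 30.6 and 51.0 in wild type, without overlap (-1.14 ± 0.38, adjusted p = 0.245). The K754R libraries also differed from each other, with summed levels of 14 fibroblast genes of 203 and 759 RPKM, against 156 to 210 in wild type and 212 to 313 in Eed null stem cells. All 14 were detected in wild-type and Eed null stem cells, 1 was at 0 in a K754R library, and the part of feeder cell RNA in these results was not tested. Between K754M and K754R stem cells none of the 10 genes was called, where 0.00952% of all genes were.

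Eed null stem cells were also set against the edited stem cells, which share the Eed null libraries with the comparison above and so do not add to it. Against K754M, 6 of the 10 genes were called higher, where 4.85% of all genes were called higher, 7.42% in either direction. These were Tex19.1, Piwil2, Tdrd1, Mov10l1, Fkbp6 and Tex101. Tdrd1 passed the filter only through the Eed null libraries, so its calls against both alleles are a description. Against K754R, 7 were called higher, the same 6 and Mael, where 4.06% of all genes were called higher and 1.96% lower, 6.02% in all, and Asz1 was lower in both Eed null libraries (log2 difference -1.19 ± 0.31 SE, adjusted p = 0.0772). Without either Eed null library only Tex101 passed in each of these comparisons, with 3 genes called without either K754M library, and 6 and 4 without K754R library 1 and 2.

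In CCE stem cells, loss of Elongin A lowered 2 of the 9 genes tested and raised none, where 1.23% of 18460 genes were called lower and 2.12% higher, 3.35% in all. Tex19.1 had 64.3, 53.1 and 56.6 RPKM in EloA null cells against 109, 84.9 and 91.3 in wild type. The highest EloA null library lay below the lowest wild-type library (log2 change -0.70 ± 0.11 SE, adjusted p = 0.0232). Fkbp6 had 18.6, 19.6 and 19.8 RPKM against 30.2, 26.3 and 28.4, likewise without overlap (-0.54 ± 0.06, adjusted p = 0.0092).

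Of the genes that missed the threshold, Dazl had 7.30, 4.15 and 5.79 RPKM against 11.2, 8.90 and 8.15 in wild type (log2 change -0.69 ± 0.20 SE, adjusted p = 0.147). The replicate number was also used as a block, because same-numbered libraries deviated together, although no label pairs them. Dazl then passed at adjusted p = 0.0284, and 3 of the 10 genes were called, in a fit that called 2288 genes instead of 619. Mov10l1 had 1.34, 0.965 and 0.951 RPKM against 1.73, 1.88 and 1.78 (-0.54 ± 0.13, adjusted p = 0.089), and Asz1 had 0.267, 0.169 and 0.279 against 0.405, 0.508 and 0.460 (-0.38 ± 0.14, adjusted p = 0.222). In these 5 genes all EloA null libraries were below all wild-type libraries, which was so for 13.1% of all genes tested. Mael and Ddx4 differed little, with Ddx4 at 2.83, 2.35 and 2.42 RPKM against 2.73, 2.30 and 2.53. Tdrd1 was at or below 0.154 RPKM in all 6 libraries and was not tested.

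The EloA null calls rested on the fit. Fkbp6 missed the threshold without wild-type library 3 (adjusted p = 0.0575), and Tex19.1 missed it without EloA null library 2 or 3 or wild-type library 2 or 3, with a largest adjusted p of 0.099. In the fit of all 14 stem cell libraries neither passed (adjusted p = 0.101 for Tex19.1 and 0.0977 for Fkbp6). The EloA null libraries were shallower, at 24.3 to 34.6 megareads against 42.8 to 46.3 megareads, and their fibroblast gene sums were 146 to 295 against 70.3 to 207 RPKM, with none of the 14 genes at 0. The part of depth and of feeder cell RNA in these differences was not tested. One read was worth at most 0.0483 RPKM for Tex19.1 and 0.0516 for Fkbp6 in stem cells.

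The effect of losing Eed in CJ7 and that of losing Elongin A in CCE stem cells differed at 8 of the 10 genes, each higher for Eed, in a test of the difference itself that called 8.02% of 21780 genes higher and 5.56% lower, 13.6% in all. The exceptions were Dazl (difference of log2 changes 0.59 ± 0.45 SE, adjusted p = 0.456) and Ddx4 (1.37 ± 0.48, adjusted p = 0.087). The difference was largest at Tex101 (4.71 ± 0.31, adjusted p = 1.2e-05), and at Tex19.1, which had not passed in the Eed comparison alone, it was 1.19 ± 0.28 (adjusted p = 0.0175). Since each mutation was made in 1 line, the mutation and the line cannot be told apart here. Without 1 of the 10 libraries 6 to 8 genes passed. Mael passed in 3 of these fits and Tex19.1 in 7, and the other 6 genes passed in all 10. Tdrd1, which is among the 8 and the 6, passed the filter of this fit only with the Eed null libraries, since outside them 1 stem cell library reached 0.25 RPKM, and it was not tested in the EloA null comparison, so its call is given as a description.

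The wild-type libraries of the lines differed too, but the line and its set of libraries cannot be told apart. Depth was 11.05 to 13.6 megareads in CJ7 and 42.8 to 46.3 megareads in CCE wild-type stem cells. Dazl was higher in CJ7 than in CCE stem cells, at 30.6 and 51.0 against 11.2, 8.90 and 8.15 RPKM (log2 difference 2.02 ± 0.32 SE, adjusted p = 0.00115). Asz1 was higher too, at 1.51 and 2.09 against 0.405, 0.508 and 0.460 RPKM (1.25 ± 0.23, adjusted p = 0.00304). Mael had 7.003 and 10.9 against 4.99, 3.04 and 3.99 RPKM (1.06 ± 0.32, adjusted p = 0.0361). Thus 3 of the 10 genes were called between the lines, where 12.5% of all genes were called higher in CJ7 and 22.7% in either direction, and Mael passed in 1 of 5 fits that left out a library, the one without CCE library 1.

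**Figure D3:**
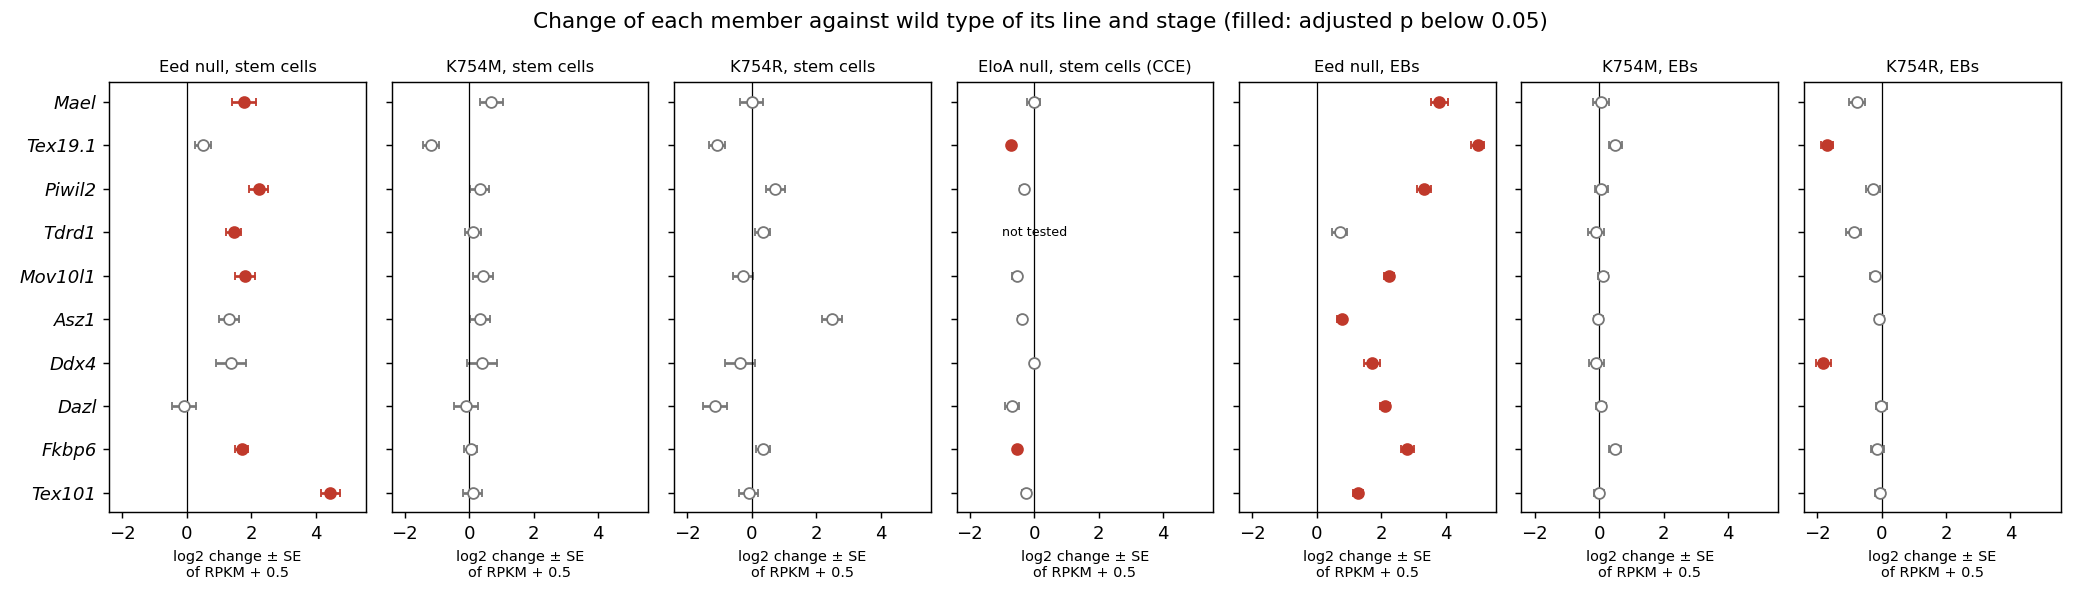
Change of each gene against wild type of its line and stage, as the difference of log2(RPKM + 0.5) with its SE (horizontal bars); filled points passed an adjusted p of 0.05. In the embryoid body panels 9 genes lie to the right and pass in Eed null, and Tex19.1 and Ddx4 lie to the left and pass in K754R.

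Wild-type CJ7 embryoid bodies had low levels of nearly all of these genes. Tex19.1 had 2.54 and 2.03 RPKM, Ddx4 1.23 and 2.19, Tdrd1 0.486 and 0.943 and Mael 0.207 and 0.548. The other 6 genes did not exceed 0.21 RPKM, and Asz1 at 0.0196 and 0.0289 and Tex101 at 0 and 0.0594 were worth a few reads, since 1 read was worth 0.00887 to 0.015 RPKM for Asz1 and 0.0151 to 0.0256 for Tex101. Set beside the stem cell table, the wild-type embryoid body means were a median of 2.92% of the stem cell means, with 8 of the 10 genes under 5%. The tables may have been normalized separately, so this difference was not tested. Ddx4 stood at 52.0% of its stem cell level, and Tdrd1 was the exception at 783%, with both embryoid body libraries above both stem cell libraries.

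Eed null embryoid bodies held far higher levels. All 10 genes were higher in both Eed null libraries than in both wild-type libraries, as were 34.9% of all genes tested. By limma 9 of the 10 rose, in a comparison in which 3703 of 19300 genes (19.19%) were called higher and 2164 (11.2%) lower, 30.4% in all. With quantile normalization 3226 were called higher and 3238 lower, and the 9 genes kept their calls. Piwil2, Mov10l1, Asz1, Dazl and Tex101 passed the filter on low values only through the Eed null libraries, so they could enter the fit only by differing, and the count of 9 is a description. Of the 5 genes that passed without those libraries, Mael, Tex19.1, Ddx4 and Fkbp6 rose and Tdrd1 missed the threshold.

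Tex19.1 had 103 and 75.3 RPKM in Eed null embryoid bodies against 2.54 and 2.03 in wild type, a 39.0-fold difference of means (log2 change 5.00 ± 0.20 SE, adjusted p = 1.9e-05). Mael had 10.4 and 12.8 RPKM against 0.207 and 0.548 (3.81 ± 0.25, adjusted p = 9.2e-05). These were the largest changes of the 10 genes on the scale of log2(RPKM + 0.5), which understates the change of genes near 0. Ddx4 had 6.72 and 6.45 RPKM against 1.23 and 2.19 (1.71 ± 0.24, adjusted p = 0.00189). Tex19.1, Mael and Ddx4 are the genes whose promoters held the E2F core, which is a description of letters and not of binding. Fkbp6, Mov10l1 and Dazl, whose promoters did not hold it, had larger log2 changes than Ddx4, at 2.81, 2.25 and 2.12. A relation between the motif and the changes was not tested.

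Among the genes of piRNA production, Piwil2 had 4.95 and 6.72 RPKM in Eed null embryoid bodies against 0.0519 and 0.210 in wild type (log2 change 3.32 ± 0.21 SE). Fkbp6 had 4.57 and 3.10 RPKM against 0.111 and 0.109 (2.81 ± 0.20). Mov10l1 had 2.08 and 2.52 RPKM against 0.0826 and 0.0885 (2.25 ± 0.16). All 3 passed by limma at adjusted p-values from 7.8e-05 to 0.000115. Piwil2 and Mov10l1 entered the fit only through the Eed null libraries, so their calls are a description. The fold differences of mean RPKM were 44.5, 34.9 and 26.9, and they rest on wild-type levels near 0, which limits their precision.

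Dazl had 1.64 and 2.07 RPKM in Eed null embryoid bodies against 0.0322 and 0.0443 in wild type (log2 change 2.12 ± 0.16 SE, adjusted p = 0.000145). In stem cells, by contrast, its Eed null and wild-type libraries overlapped. Whether the effect of Eed loss differed between the stages was not tested for any gene. Tex101 had 0.811 and 0.765 RPKM against 0 and 0.0594 (1.28 ± 0.15, adjusted p = 0.000947), and Asz1 had 0.355 and 0.451 against 0.0196 and 0.0289 (0.78 ± 0.14, adjusted p = 0.00587). Tex101 and Asz1 were the lowest of the 10 genes in Eed null embryoid bodies. Dazl, Tex101 and Asz1 entered the fit only through the Eed null libraries, so their calls are a description as well. Tdrd1 had 1.20 and 1.74 RPKM against 0.486 and 0.943 (0.71 ± 0.24, adjusted p = 0.0588).

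Leaving out a wild-type library kept all 9 calls, and without wild-type library 2 Tdrd1 passed as well (adjusted p = 0.0359). Leaving out either Eed null library took the same 5 genes out of the filter, and 4 genes, Mael, Tex19.1, Ddx4 and Fkbp6, were then called. Set beside the Eed null stem cells, again without a test, the Eed null embryoid body means were a median of 22.4% of the stem cell means, with 2 genes, Tex101 and Fkbp6, under 5%. Tex19.1 stood at 49.6%, Mael at 37.3%, Piwil2 at 22.4% and Mov10l1 at 22.5%, while Fkbp6 stood at 4.71%, Dazl at 5.02% and Tex101 at 2.86%.

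Markers of undifferentiated cells moved with these genes. The summed level of 16 pluripotency genes was 1980 to 2511 RPKM in Eed null embryoid bodies against 175 to 223 in wild type, and 2462 to 2537 in Eed null stem cells, and none of the 16 was at 0 in any of these libraries. By limma 14 of the 16 rose in Eed null embryoid bodies, where 19.19% of all genes were called higher and 11.2% lower. The summed level of 9 primordial germ cell markers was 161 to 163 RPKM against 43.3 to 44.6, and 6 of the 8 tested rose, among them Dppa3 and Prdm14, which stem cells also express. The summed level of 12 mesoderm genes was 86.1 to 103 RPKM against 211 to 230. The part of undifferentiated cells in the results for the 10 genes was not tested.

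Markers of later germ cells were at low summed levels, and those tested were called higher in part. Of 12 spermatocyte and spermatid genes 4 passed the filter in embryoid bodies and 2 of them, Tex14 and Ldhc, rose in Eed null. Over all genes 19.19% were called higher there and 11.2% lower. The 1 oocyte gene tested, Zp3, was called higher as well (log2 change 2.53 ± 0.17 SE, adjusted p = 1e-04, limma). Its 2 Eed null libraries were enough to pass the filter, while all 9 oocyte genes together reached at most 0.316 RPKM in wild type, K754M or K754R. The call of Zp3 is therefore a description. The sum over 12 spermatocyte and spermatid genes was 6.69 to 7.43 RPKM in Eed null embryoid bodies against 2.52 to 2.84 in wild type, with 3 or 4 of the 12 at 0 in each library of both groups. The sum over 9 oocyte genes was 2.57 to 3.17 against 0.145 to 0.239 RPKM, with 2 to 4 of the 9 at 0 in Eed null libraries, and Zp3, an egg coat protein, carried most of it at 2.19 and 2.85 RPKM. In Eed null stem cells the spermatocyte and spermatid sum was lower than in wild type, at 10.9 to 12.1 against 33.0 to 33.1 RPKM, with 2 or 3 of the 12 at 0 in each library. Tex14 carried most of the wild-type stem cell sum and was itself lower in Eed null, so the difference of these sums largely follows 1 gene.

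**Figure D4:**
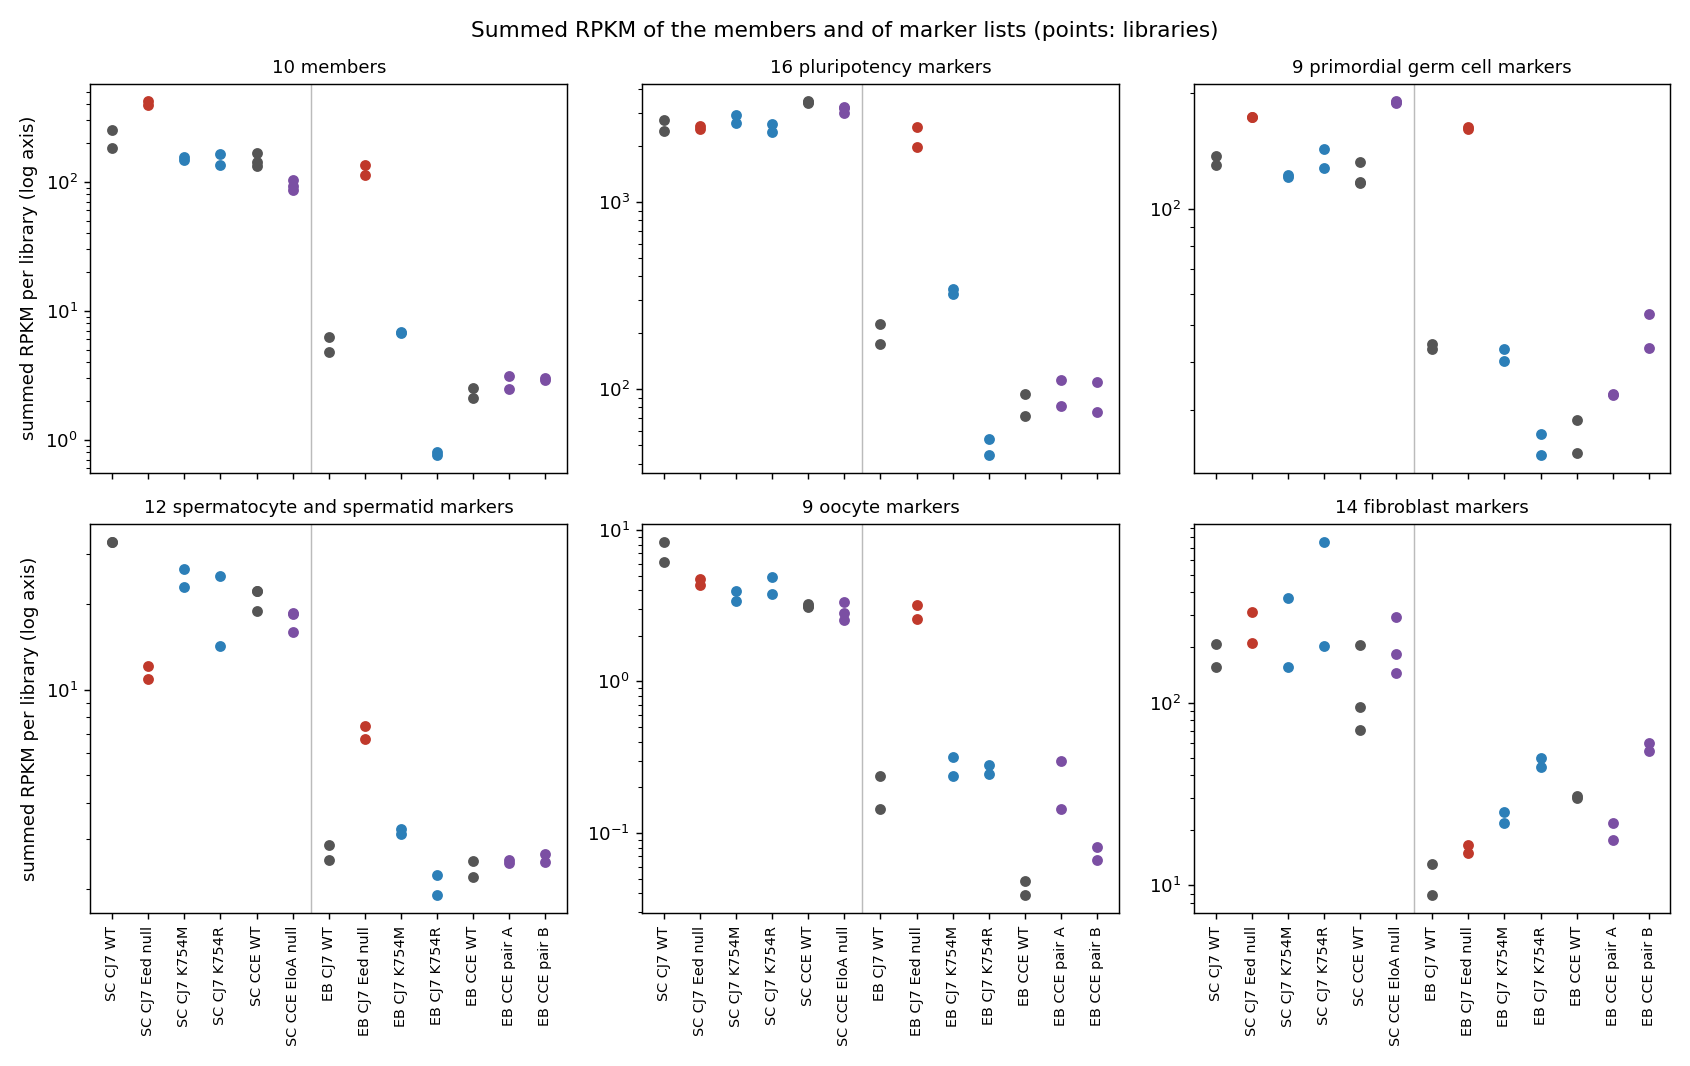
Summed RPKM per library (points, log axis) of the 10 genes and of 5 marker lists in the 13 groups, with stem cells left and embryoid bodies right of the grey line. In embryoid bodies the 10 genes and the pluripotency genes are both highest in Eed null and lowest in K754R.

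In K754R embryoid bodies the summed level of the 10 genes was the lowest of the 13 groups, at 0.76 to 0.802 RPKM, against 4.76 to 6.25 in wild type, 6.69 to 6.84 in K754M and 112 to 135 in Eed null. In 8 of the 10 both K754R libraries lay below both wild-type libraries, which was so for 27.2% of all genes. Among these 8, Piwil2, Mov10l1 and Asz1 passed the filter only through the Eed null libraries. They had at most 0.21 RPKM in either group, so the count is a description. By limma 2 of the 10 genes fell, where 4.85% of all genes were called lower and 4.82% higher, 9.68% in all. Tex19.1 had 0.413 and 0.306 RPKM against 2.54 and 2.03 (log2 change -1.69 ± 0.20 SE, adjusted p = 0.00541). Ddx4 had 0.135 and 0.0994 RPKM against 1.23 and 2.19 (-1.81 ± 0.24, adjusted p = 0.00763).

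Tex19.1 kept its call without any 1 of the 4 libraries. Ddx4 missed the threshold without K754R library 1 (adjusted p = 0.0549) or 2 (adjusted p = 0.0611) and 1 of the 10 genes was then called. Without wild-type library 1, 3 were called, with Tdrd1 added (adjusted p = 0.0479). Tdrd1 had 0.135 and 0.173 RPKM against 0.486 and 0.943 (log2 change -0.87 ± 0.24 SE, adjusted p = 0.0622), and Mael had 0.0227 and 0 against 0.207 and 0.548 (-0.75 ± 0.25, adjusted p = 0.105). With a pseudocount of 0.1 in place of 0.5 both of these passed, at adjusted p = 0.0376 and 0.0338. Asz1 was listed at 0 in both K754R libraries. The pluripotency sum moved with these genes, at 44.4 to 54.3 RPKM in K754R against 175 to 223 in wild type, and so did the fibroblast sum in the other direction, at 44.3 to 49.5 against 8.82 to 13.1 RPKM, and their part in the result was not tested.

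K754M embryoid bodies gave no call among the 10 genes, where 0.565% of all genes were called, 0.181% higher and 0.383% lower, and 2 of the 10, Tex19.1 and Fkbp6, had an unadjusted p under 0.05. Tex19.1 had 3.68 and 3.18 RPKM in K754M against 2.54 and 2.03 in wild type (log2 change 0.50 ± 0.20 SE, adjusted p = 0.289). Fkbp6 had 0.362 and 0.356 against 0.111 and 0.109 RPKM (0.49 ± 0.20, adjusted p = 0.306). Set against each other, the alleles differed at 2 of the 10 genes, where 1.9% of all genes were called higher in K754M and 3.62% in either direction. Tex19.1 was higher in K754M than in K754R by 2.19 ± 0.20 on the log2 scale (adjusted p = 0.00484) and Ddx4 by 1.72 ± 0.24 (adjusted p = 0.016). In 9 of the 10 genes both K754M libraries exceeded both K754R libraries, against 26.1% of all genes, and Tex101 overlapped. Among these 9, Piwil2, Mov10l1, Asz1 and Dazl passed the filter only through the Eed null libraries. They had at most 0.16 RPKM in either allele, so the count is a description. Without 1 library, Ddx4 passed in none of 4 fits and Tex19.1 in the fits without K754M library 2 and without K754R library 1. Set against the edited embryoid bodies, all 10 genes were called higher in Eed null than in K754M, where 18.0% of all genes were called higher and 9.17% lower, 27.2% in all, and than in K754R, where 20.4% were called higher and 34.0% in either direction. These comparisons share the Eed null libraries, and the 5 genes that passed the filter only through them, with the one against wild type. Tdrd1 lost its call against K754M (adjusted p = 0.0422) without any 1 of the 4 libraries.

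In CCE embryoid bodies 3 of the 10 genes, Tex19.1, Tdrd1 and Ddx4, passed the filter. None was called in pair A against wild type, where 0.0% of 17735 genes were called and 1166 had an unadjusted p under 0.05, in pair B against wild type, where 0.135% were, 0.107% higher and 0.0282% lower, or between the pairs, where 0.44% were, 0.344% higher in pair B and 0.0959% lower. Tex19.1 had 0.838 and 0.600 RPKM in pair A, 1.15 and 1.40 in pair B and 0.902 and 0.633 in wild type. Pair B lay above both other groups at this gene (log2 difference from wild type 0.49 ± 0.22 SE, adjusted p = 0.362). Ddx4 had 1.08 and 1.38 RPKM in pair A, 1.14 and 1.08 in pair B and 0.686 and 1.05 in wild type. The other 7 genes did not exceed 0.263 RPKM in any CCE embryoid body library, and Asz1 was at 0 in 5 of the 6. In embryoid bodies, too, the line and its set of libraries cannot be told apart. Between the wild-type lines, Tex19.1 was higher in CJ7 than in CCE embryoid bodies, at 2.54 and 2.03 against 0.902 and 0.633 RPKM (1.14 ± 0.20, adjusted p = 0.00914). It was the 1 gene of the 10 called, where 4.17% of all genes were called higher in CJ7 and 6.82% in either direction. That call was lost without CJ7 library 1 (adjusted p = 0.0648) or CCE library 2 (adjusted p = 0.0619).

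In the order of group levels, Eed null embryoid bodies came first for all 10 genes with no library overlap with the next group. K754R embryoid bodies came last for Tex19.1, Tdrd1, Ddx4 and Mael, without overlap with the group above. In stem cells Eed null came first without overlap for 8 genes. For Asz1 the order ran from K754R through Eed null, K754M and wild type of CJ7, of which the last pair overlapped, to CCE wild type and EloA null. For Dazl, CJ7 wild type, Eed null and K754M overlapped at the top and were followed by K754R, CCE wild type and EloA null, each without overlap.

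Other genes of the piRNA pathway had a smaller median change in stem cells. The 10 genes were chosen with earlier results of these data known. Their median also includes Tdrd1, which passed the filter only through the Eed null libraries, so the contrast of medians is a description. Of 26 listed, 20 were tested in Eed null stem cells, 4 rose and 1 fell, where 5.32% of all genes were called higher and 3.27% lower, with a median log2 change of 0.26 against 1.58 for the 10 genes and 0.05 for all genes. Tdrd9, a Tudor-domain helicase, had 3.40 and 2.72 RPKM against 0.378 and 0.323 (2.06 ± 0.35 SE, adjusted p = 0.0203), and Dnmt3l, the cofactor of de novo DNA methylation in germ cells, had 107 and 99.3 against 43.6 and 44.3 (1.22 ± 0.16, adjusted p = 0.00899). Stk31 and Ddx25, a Tudor-domain kinase-like protein and a DEAD-box helicase, rose too, Stk31 by a log2 change of 1.08 ± 0.19 SE and Ddx25 at an adjusted p of 0.0386. Morc1, an ATPase needed for transposon silencing in male germ cells, fell, from 98.2 and 100.3 RPKM to 35.8 and 34.6 (-1.48 ± 0.12, adjusted p = 0.00195).

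In Eed null embryoid bodies 9 of 17 tested genes of that list rose and 1 fell, where 19.19% of all genes were called higher and 11.2% lower. The median log2 change was 0.89 against 0.05 for all genes. Which of the 17 passed the filter without the Eed null libraries was not checked, so the count and the median are a description. Dnmt3l had 75.6 and 88.0 RPKM against 1.56 and 1.45 (log2 change 5.36 ± 0.16 SE, adjusted p = 8.25e-06), and Morc1 had 28.4 and 23.4 against 0.808 and 1.08 (4.19 ± 0.23, adjusted p = 4.99e-05). Tdrd12, Stk31, Rnf17, Pnldc1, Tdrd7 and Gtsf1 rose by log2 changes of 3.43 down to 0.99. In K754R embryoid bodies 4 of the 17, Tdrd12, Tdrkh, Ddx25 and Tdrd5, fell, where 4.85% of all genes were called lower, and none rose. In EloA null stem cells Prmt5, which methylates PIWI proteins, rose by 0.62 and Tex15 fell by 0.59 on the log2 scale, out of 17 tested, where 2.12% of all genes were called higher and 1.23% lower.

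Of 14 close relatives of the genes, 13 were tested in Eed null stem cells, and 2 rose and 1 fell. There 5.32% of all genes were called higher and 3.27% lower, and the median log2 change of the relatives was 0.57 against 0.05 for all genes. In Eed null embryoid bodies 5 of 10 tested rose and none fell, where 19.19% of all genes were called higher, with a median of 0.92 against 0.05. For the relatives, too, passing the filter without the Eed null libraries was not checked, so these counts and medians are a description. Tex19.2, the paralog of Tex19.1, had 16.9 and 15.7 RPKM in Eed null stem cells against 2.78 and 4.06 in wild type (log2 change 2.12 ± 0.32 SE, adjusted p = 0.0134); its difference from the change of Tex19.1 was not tested. Transcripts of the pair are 83.5% identical over 1106 aligned bases with a longest identical run of 72 bases, so reads of the pair may be shared. Mov10, the widely expressed relative of Mov10l1, had 16.3 and 16.7 RPKM against 26.5 and 18.5 in stem cells, without a call, and 12.5 and 28.5 against 4.604 and 5.18 in embryoid bodies (1.85 ± 0.34, adjusted p = 0.00614). Of 22 repressors of germline genes and transposons, Mga, Max and E2f6 among them, none was called in Eed null stem cells by limma, with 5 at an unadjusted p under 0.05. In Eed null embryoid bodies 5 of the 22 rose, Dnmt3a, L3mbtl2, Trim28, Uhrf1 and Ehmt2, and Hdac2 fell. Over all genes 19.19% were called higher there and 11.2% lower, so nothing is read from these counts.

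Across the 14 embryoid body libraries the log2 levels of the 10 genes were closely related, with Pearson's r between 0.767 and 0.996 over the 45 pairs and a median of 0.962. Across the 14 stem cell libraries r ranged from 0.17 to 0.937 with a median of 0.751. These libraries share lines and groups, and the 2 Eed null libraries stand apart in both tables, so the values only describe these libraries. Of 13004 genes with a mean of at least 1 RPKM in embryoid bodies, those most like the mean profile of the 10 genes were Pcsk6 and Trpv2 (r = 0.994 each), Phf17 (r = 0.993), Mbnl3 (r = 0.992) and Dnahc8 (r = 0.991). In stem cells, of 13974 genes, they were Gm11675 (r = 0.988), Sycp1 (r = 0.976), Met and Tmem159 (r = 0.972 each) and Unc13b (r = 0.971). Pcsk6 is a proprotein convertase, Trpv2 a cation channel, Sycp1 a protein of the synaptonemal complex and Met a receptor tyrosine kinase.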

How the data were processed

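RNA was measured in 28 libraries, 14 of mouse embryonic stem cells and 14 of embryoid bodies. The authors deposited 1 RPKM table per stage; per the submitters' processing notes, CASAVA 1.7 and STAR were used with build mm9. For the counting tool and the annotation release, nothing is given in the sources used here, nor for strand. The RPKM values are not counts, so limma 3.58.1 (R 4.3.3) was fitted with a mean-variance trend to log2(RPKM + 0.5), per stage and cell line, over genes at 0.25 RPKM or more in at least 2 libraries. P-values were adjusted over all genes tested by Benjamini-Hochberg and called under 0.05. Differences between lines or effects used all 14 libraries of a stage. For listed genes outside the 10, apart from Zp3, passing the filter without the Eed null libraries was not checked. Counts of such genes called in Eed null are therefore descriptions. The stages may have been normalized separately and were not tested against each other. Same-numbered EloA null and wild-type stem cell libraries deviated together (r = 0.512, 0.216 and 0.242 over genes) and were taken as pairs in an alternative fit. EloA null library 2 deviated with wild-type library 3 to the same degree (r = 0.217), and no label pairs them, so the pairing is uncertain. Depth was estimated from the RPKM step of 1 read with GENCODE M21 exon lengths, found for 32860 of 37583 identifiers, which limits its precision. The fit was tested on simulated data. Figures used matplotlib 3.10.9 and alignment Biopython 1.88. The 10 genes, the other gene lists and the rule for named genes were chosen with earlier results of these data known. The rule named all 10 genes, Eed and Tceb3, up to 8 called genes with the largest change of each list of pathway genes, relatives and repressors, and the 5 genes most like the mean profile; other genes, such as Zp3, Dppa3, Prdm14, Tex14, Ldhc, Sycp1, Tex12 and Zscan4c, were chosen after their values were seen.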

Additional observations from a re-analysis of the deposited data

Results flagged for a closer look

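For 4 pairings of a gene and an edited allele, both edited libraries lay on one side of both wild-type libraries in stem cells and on the other side in embryoid bodies. Both K754R libraries lay above both wild-type libraries for 20.7% of all genes tested in stem cells. In embryoid bodies they lay below for 27.2%. Both K754M libraries lay below for 3371 of 21012 genes in stem cells and above for 5010 of 19300 in embryoid bodies. The share of all genes with opposite sides in the stages was not computed, so the count of 4 is a description. The difference between the stages was not tested, since the tables may have been normalized separately. None of the changes below was called within its stage in the fit per cell line. The mean RPKM of Tex19.1 in K754M was 0.4372 of wild type in stem cells and 1.503 of wild type in embryoid bodies. Piwil2 in K754R stood at 1.799 of wild type in stem cells and at 0.1705 in embryoid bodies, where it had 0 and 0.0447 RPKM. Tdrd1 in K754R stood at 2.733 of wild type in stem cells, with all 4 values below 0.33 RPKM, and at 0.2154 in embryoid bodies. Asz1 in K754R stood at 6.958 of wild type in stem cells and at 0.0 in embryoid bodies, where it was listed at 0 in both libraries and wild type had 0.0196 and 0.0289 RPKM.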

How the results depend on the processing

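No called change of the 10 genes changed sign under the alternatives run. Under the alternatives 1711 single-gene values kept their side of the threshold, 109 lost it and 29 gained it; the causes were not tested. With all 14 libraries in 1 fit, the number of the 10 genes called in stem cells was 8 instead of 6 for Eed null against wild type (Asz1 and Ddx4 added), 1 instead of 0 for K754M, 2 instead of 0 for K754R, 1 instead of 0 between these alleles and 0 instead of 2 for EloA null, where the last 4 comparisons called 955, 1747, 841 and 296 genes in all. Without the filter on low values, which adds genes to the adjustment, the count was 4 for Eed null stem cells against wild type (Mael, adjusted p = 0.127, and Mov10l1, adjusted p = 0.0692, lost), 3 against K754M and 1 against K754R in stem cells, 1 for EloA null, and 1 for K754M against K754R in embryoid bodies. A pseudocount of 0.1 gave 4 in embryoid bodies for K754R against wild type and 4 for K754M against K754R. Leaving out 1 library, which assumes that a lone library varies like the other groups, gave 1 to 2 of the genes for Eed null stem cells against wild type, 1 to 3 against K754M, 1 to 6 against K754R, and 0 to 2 for EloA null. In embryoid bodies it gave 4 to 10 for Eed null against wild type, 4 to 9 against K754M, 5 to 10 against K754R, 1 to 3 for K754R against wild type, 0 to 1 between the alleles and 0 to 1 between the wild-type lines.

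With the replicate number as a block, 7 of the 10 genes were called in Eed null stem cells (Ddx4 added, adjusted p = 0.0490), 3 in EloA null, 10 in Eed null embryoid bodies (Tdrd1 added, adjusted p = 0.0407) and 3 in K754R embryoid bodies (Tdrd1 added, adjusted p = 0.0429). Against K754R stem cells, the block added Ddx4 (adjusted p = 0.0350) and dropped Tdrd1 (adjusted p = 0.0533), and it changed no other call. No label pairs libraries in any comparison. Outside the EloA null comparison, deviations of same-numbered libraries also had positive r, from 0.0116 to 0.425. Over all genes the block called 2 instead of 34 for K754R stem cells, 0 instead of 2 between the alleles there, 230 instead of 109 for K754M embryoid bodies, 2950 instead of 1868 for K754R, 1099 instead of 698 between these, 703 instead of 24 for pair B, 1462 instead of 78 between the pairs, 2407 instead of 1366 between the lines, and 2288 instead of 619 for EloA null. The fit of all 14 libraries called 5211 instead of 1805 for Eed null stem cells, 4792 instead of 1560 against K754M, 4007 instead of 1264 against K754R, and in embryoid bodies 434 for K754M, 1358 between the alleles, 591 for pair B and 794 between the pairs. Without the filter 111 genes were called for K754M stem cells, 96 for K754R, 73 between the alleles and 331 for EloA null, and in embryoid bodies 838 for K754R, 344 between the alleles, 81 for pair A, 102 for pair B and 201 between the pairs. The 1 RPKM filter called 185 for K754M embryoid bodies, 150 for pair B and 152 between the pairs, quantile normalization 101 for pair B, and a pseudocount of 0.1 called 1 between the pairs and 1 for K754M stem cells. Between the alleles in stem cells, a pseudocount of 1 and quantile normalization each called 0. Leaving out 1 library called 179 to 417 for Eed null stem cells, 158 to 640 for EloA null, 171 to 654 for Eed null against K754M, 132 to 1324 against K754R, and 0 for K754R against wild type and between the alleles in stem cells. In embryoid bodies it called 3921 to 4647 for Eed null, 2847 to 3971 against K754M, 4074 to 5546 against K754R, 0 to 17 for K754M, 177 to 1249 for K754R, 21 to 64 between the alleles, 0 to 1 for pair B and between the pairs, and 567 to 768 between the lines. It called 2867 to 4150 between the lines in stem cells and 1190 to 2468 for the difference of the Eed null and EloA null effects. Over all genes, quantile normalization called 3226 higher and 3238 lower in Eed null embryoid bodies, against 3703 and 2164, and kept the 9 calls among the 10 genes there. It called 2872 higher and 2801 lower against K754M, where Tdrd1 lost its call (adjusted p = 0.0811), and 3421 higher and 3793 lower against K754R. In wild-type embryoid bodies Asz1 and Tex101 were worth only a few reads, which limits the precision of their values.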

Other observations

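Some genes outside the 10 changed in opposite directions with Eed loss in the 2 tables, a difference that was not tested. Morc1 fell in Eed null stem cells (log2 change -1.48 ± 0.12 SE by limma) and rose in Eed null embryoid bodies (4.19 ± 0.23). Tex14, which encodes a protein of the bridges between germ cells, had 6.32 and 5.60 RPKM in Eed null stem cells against 21.1 and 22.1 in wild type (log2 change -1.78 ± 0.20 SE, adjusted p = 0.00494 by limma). In embryoid bodies it had 3.55 and 4.47 RPKM in Eed null against 0.280 and 0.469 (2.37 ± 0.20, adjusted p = 0.000228).

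The summed level of 6 markers of the 2-cell embryo was higher in Eed null and also in EloA null stem cells. In CJ7 it was 73.4 to 74.6 RPKM in Eed null against 0.554 to 1.64 in wild type. In CCE it was 19.6 to 69.9 RPKM in EloA null against 4.45 to 11.6 in wild type. The sums were not tested. Of 10 listed, 6 were found in the tables and tested, and 5 rose in Eed null, where 5.32% of all genes were called higher and 3.27% lower. The median log2 change was 3.69 against 0.05 for all genes. The 6 together had 0.929 to 2.34 RPKM in K754M and 1.13 to 3.07 in K754R stem cells. Which of them passed the filter on low values without the Eed null libraries was not checked, so the count and the median are a description. Zscan4c, a member of a cluster of near-identical genes among which reads may be shared, rose by a log2 change of 4.26 ± 0.27 (SE, adjusted p = 0.000706). Of 18 meiosis genes tested in Eed null stem cells 4 rose, where 5.32% of all genes were called higher and 3.27% lower, and the median log2 change of the list was 0.05, the same as over all genes at this precision. Those that rose include Sycp1 and Tex12 of the synaptonemal complex with log2 changes of 1.93 and 2.65, and 1 gene of the list fell.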
